A study of Mus musculus with 2 samples.

Results

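The genes described here are a set built around cell cycle arrest and the p53 response: the Cdkn1 inhibitors Cdkn1a, Cdkn1b and Cdkn1c, the growth arrest and DNA damage genes Gadd45a, Gadd45b and Gadd45g, and Trp53, Mdm2 and Ccng1. All probe sets whose platform gene symbol is one of these 9 names were read. Of the 9 genes, 8 had a probe set, with 16 probe sets among the 45101 of the array and the 18193 named genes, and Trp53 itself was not analysed here. The genes were chosen by their measured values, because Cdkn1a appears on day 1 and Gadd45b is much brighter there, so the day 1 over day 0 ratios of the members are a description and support nothing by themselves. The samples were mammary glands of female CD1 mice 1 day after forced weaning (day 1 of involution, when the milk-producing gland regresses) and on the day of weaning (day 0). Pups were removed at day 10 of lactation from litters of 6, and each day is represented by 1 Affymetrix Mouse Genome 430 array hybridised with a pool of RNA from 5 mice. The mice were 6 weeks old at purchase, and no treatment or allele other than weaning is named. With 1 array of pooled RNA per day there is no replicate error, no test between days is possible, and differences among the mice of a pool are hidden.

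The transcription factor p53 accumulates after DNA damage and other stress and switches on genes that stop division, repair DNA or start cell death. Its target Cdkn1a encodes p21, which binds and inhibits cyclin-dependent kinases, and its target Mdm2 encodes the ubiquitin ligase that marks p53 for degradation and so closes a feedback loop. The Gadd45 proteins are small stress sensors that bind the replication clamp and upstream kinases of the p38 and JNK pathways, and both they and p21 are also induced without p53 by cytokine, NF-kappaB and TGF-beta signals. In the mammary gland, weaning is followed within the first days by loss of milk secretion and death of secretory cells. Mice without p53 have been reported both with normal and with delayed involution.

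The values are MAS 5 signals, probe set intensities on a linear scale. Signals below 77.7, the median over both arrays, were raised to that value (the floor), and genes above it on at least 1 array count as measured. Where only 1 array was above it, the ratio is a bound and is given as "at least". Of 13239 measured genes, 10.4% had a signal at least 2-fold higher on day 1, 13.3% a signal at least 2-fold lower, and the median log2 ratio was -0.12. The floor was passed by 44.5% of probe sets on day 1 and by 55.4% on day 0. The 15 hybridisation spike-in probe sets had a median log2 ratio of -1.16. Scaling on them adds 1.16 to the log2 ratio of genes above the floor on both arrays before and after scaling. The floor was set anew after scaling, so ratios of genes at or near the floor move by other amounts. For beta-actin, the signal at the 3' end over that at the 5' end was 1.51 on day 1 and 2.50 on day 0, and for Gapdh it was 1.48 on day 1 and 1.52 on day 0.

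Among the Cdkn1 inhibitors, Cdkn1a was bright on day 1 and below the floor on day 0. Its probe set 1424638_at had a signal of 2010.2 on day 1 and 22.8 on day 0, and 1421679_a_at had 676.4 on day 1 and 14.7 on day 0. Both probe sets were thus above the floor only on day 1. With day 0 held at the floor, 1424638_at was at least 25.9-fold higher (4.69 on the log2 scale) and 1421679_a_at at least 8.71-fold higher (3.12). The gene ranked at place 8 among the 13239 measured genes by ratio.

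RefSeq (GRCm38.p6) annotates more than 1 start for Cdkn1a, and the 250 bases before both starts in the table are shown because Cdkn1a was bright on day 1 only and is a known p53 target. Capitals mark matches, on either strand, to the TATA box TATAA, the NF-Y box CCAAT, the GC box GGGCGG and the E-box CACGTG, and to the p53 response element, a pair of 10-base half-sites joined without a spacer with at most 2 mismatches in 20 bases. The motifs were chosen with the ratios known. The first window is chr17:29090729-29090978 and the second chr17:29093519-29093768, both on the plus strand.
Cdkn1a upstream start: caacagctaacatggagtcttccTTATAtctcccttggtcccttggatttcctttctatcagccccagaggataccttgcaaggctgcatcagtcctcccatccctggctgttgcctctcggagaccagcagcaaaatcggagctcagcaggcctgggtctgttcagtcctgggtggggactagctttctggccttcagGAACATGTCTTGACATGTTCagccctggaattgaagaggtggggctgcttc
Cdkn1a downstream start: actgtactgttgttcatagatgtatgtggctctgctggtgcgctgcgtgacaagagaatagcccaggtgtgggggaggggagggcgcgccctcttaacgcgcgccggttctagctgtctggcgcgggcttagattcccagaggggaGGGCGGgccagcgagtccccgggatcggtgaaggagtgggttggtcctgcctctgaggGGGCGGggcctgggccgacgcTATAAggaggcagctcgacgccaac
The upstream window holds a p53 response element with 1 mismatch, from 51 to 32 bases before the start, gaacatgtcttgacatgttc in the letters of the window. Such an element occurs in 217 of all 32851 promoter windows of this length (0.661%). The downstream window holds no such match, but has a TATA box 25 to 21 bases before the start and a GC box at 2 places. A TATA box was present in 22.8% and a GC box in 32.7% of all windows. A match describes these letters only, and the array does not tell which start was used.

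Cdkn1b, which encodes the kinase inhibitor p27, had probe sets that pointed apart. The brighter, 1434045_at, had a signal of 675.4 on day 1 and 321.3 on day 0, a 2.10-fold higher signal on day 1. The dimmer, 1419497_at, was at the floor on day 1 with a signal of 21.0, against 88.2 on day 0, so its signal was at least 1.14-fold lower. The 2-fold count of this gene therefore rests on 1 of its 2 probe sets. Cdkn1c, the gene of the inhibitor p57 and an imprinted gene, had signals of 13.6 on day 1 and 26.0 on day 0, both under the floor, and no ratio is given for it. The members of the family thus differed: 1 appeared only on day 1, 1 lay near 2-fold with probe sets that disagree in direction, and 1 was not measurable on either array.

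**Figure D1:**
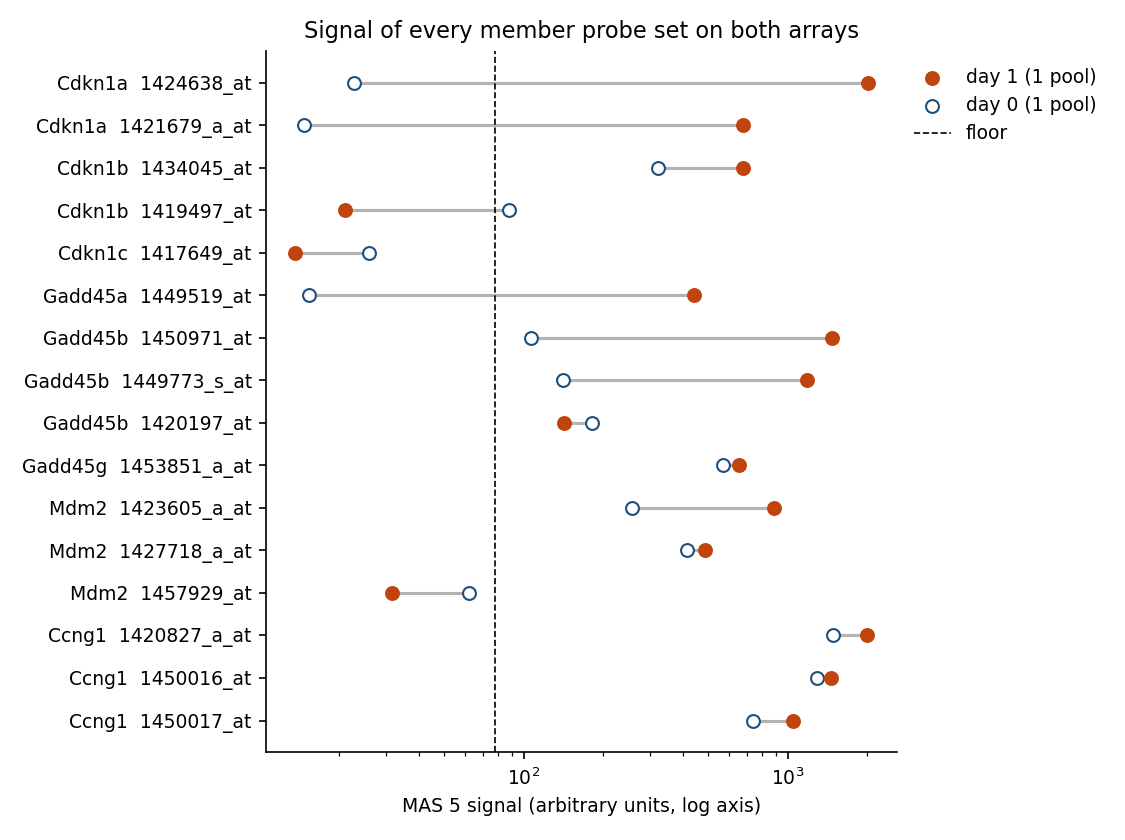
MAS 5 signal (log axis) of the 16 member probe sets, with day 1 as filled and day 0 as open points, 1 pool of 5 mice each, and the floor of 77.7 as a dashed line. Cdkn1a and Gadd45a cross the floor between the days, whereas the points of Gadd45g and Ccng1 lie close together.

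Within the Gadd45 family, 2 genes were brighter on day 1 and 1 was nearly level. Gadd45b, which is induced by NF-kappaB and TGF-beta and binds the JNK kinase activator Map2k7, had a signal of 1468.7 on day 1 and 106.5 on day 0 at probe set 1450971_at, a 13.8-fold higher signal. Its second probe set, 1449773_s_at, had 1184.0 on day 1 and 140.1 on day 0, 8.45-fold higher. At the third, 1420197_at, the signal was 141.9 on day 1 and 181.7 on day 0, which is 1.28-fold lower. The first pair thus shared a large ratio above 1, which the third probe set did not show. Gadd45b ranked at place 22 among measured genes.

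Gadd45a, the family member with a p53 element inside the gene, was measured by 1 probe set, 1449519_at. Its signal was 440.4 on day 1 and 15.3 on day 0, so that it was at least 5.67-fold higher and ranked at place 119. Like Cdkn1a, it was above the floor only on day 1. With a floor at the 75th percentile of all signals, its bound shrank to 0.82 on the log2 scale, under 2-fold. Gadd45g, first found as a cytokine-responsive member, had a signal of 655.2 on day 1 and 567.8 on day 0 at its single probe set, 1.15-fold higher and at place 4593.

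The promoters of both genes with a large ratio are shown for comparison with Cdkn1a, with capitals as above. The Gadd45b window is chr10:80929841-80930090 on the plus strand and the Gadd45a window is chr6:67037408-67037657 on the minus strand, written in the direction of the gene.
Gadd45b: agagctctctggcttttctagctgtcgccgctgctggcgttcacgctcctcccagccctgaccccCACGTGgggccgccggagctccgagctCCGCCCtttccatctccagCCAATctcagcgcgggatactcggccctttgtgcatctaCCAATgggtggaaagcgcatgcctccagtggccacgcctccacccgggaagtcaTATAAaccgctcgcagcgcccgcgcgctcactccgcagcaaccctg
Gadd45a: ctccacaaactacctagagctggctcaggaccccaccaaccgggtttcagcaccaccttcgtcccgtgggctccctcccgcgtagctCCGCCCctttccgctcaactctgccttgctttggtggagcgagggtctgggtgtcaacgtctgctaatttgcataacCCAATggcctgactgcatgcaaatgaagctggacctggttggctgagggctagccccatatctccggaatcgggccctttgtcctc
Neither window holds a p53 response element under the same rule, which says only that such letters are not in these 250 bases. Gadd45b has a TATA box 46 to 42 bases before the start, the NF-Y box at 2 places and the E-box at 185 to 180 bases. Gadd45a has an NF-Y box at 86 to 82 bases and a GC box on the opposite strand at 163 to 158 bases. The NF-Y box occurs in 33.9% and the E-box in 6.02% of all windows. The letters TTCNNNGAA, the core that Stat factors bind, occur in 7.02% of all windows and in no member window.

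Mdm2 was at least 2-fold brighter on day 1 at 1 of its 3 probe sets. At 1423605_a_at the signal was 885.8 on day 1 and 256.2 on day 0, 3.46-fold higher and at place 368 of the measured genes. At 1427718_a_at it was 485.5 on day 1 and 414.9 on day 0, 1.17-fold higher. The third, 1457929_at, had 31.6 on day 1 and 61.9 on day 0, both under the floor. The first 2 thus shared a direction but not a size, and with the mean of both the gene had a log2 ratio of 1.01. The p53-driven promoter of Mdm2 lies inside the gene, and the window before its annotated start is not a test of it.

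Ccng1, an early known p53 target whose product brings a phosphatase to Mdm2, was bright on both days. Its 3 probe sets had signals of 1991.8, 1460.1 and 1044.9 on day 1 and of 1479.3, 1285.6 and 735.8 on day 0. All were higher on day 1, by 1.35-fold, 1.14-fold and 1.42-fold, and none reached 2-fold. The Ccng1 promoter, chr11:40755287-40755536 on the minus strand, is printed because it is the other member window with a p53 response element.
Ccng1: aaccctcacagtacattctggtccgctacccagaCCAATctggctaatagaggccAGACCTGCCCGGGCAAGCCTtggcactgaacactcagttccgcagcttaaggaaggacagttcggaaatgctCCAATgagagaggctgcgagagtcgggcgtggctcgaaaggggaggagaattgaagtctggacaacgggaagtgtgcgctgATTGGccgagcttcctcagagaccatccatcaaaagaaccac
The element, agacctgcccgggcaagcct, has 1 mismatch and lies from 195 to 176 bases before the start. Among the members with a promoter in the table (all 8 with a probe set except Cdkn1c), Cdkn1a and Ccng1 thus carried an element in a window, and with the floor their ratios were the largest and the second smallest of the 7 measured members.

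**Figure D2:**
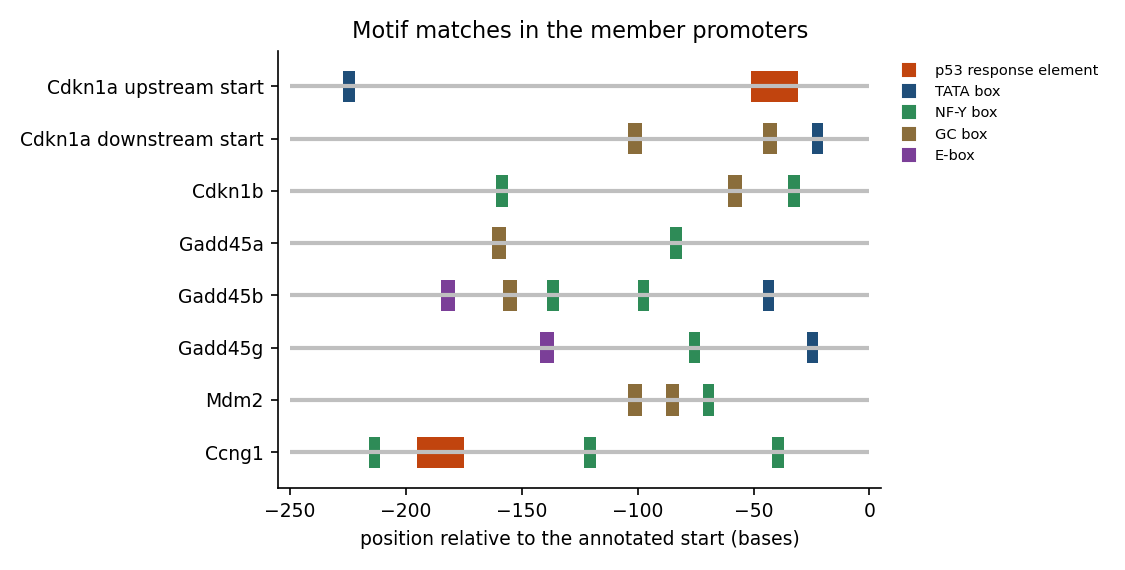
Motif matches in the 250 bases before each annotated start of the 7 members with a promoter in the RefSeq table (x axis, bases relative to the start, with 2 starts of Cdkn1a). The p53 response element appears at the upstream start of Cdkn1a and in Ccng1, and TATA boxes in both Cdkn1a windows, Gadd45b and Gadd45g.

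Of the 9 genes, 7 were measured, and 5 of these were at least 2-fold higher on day 1 (71.4%, against 10.4% of all measured genes), with none at least 2-fold lower (13.3% of all). Because the set was chosen on this contrast, nothing is read from these shares. The order by ratio was Cdkn1a, Gadd45b, Gadd45a, Mdm2, Cdkn1b, Ccng1 and Gadd45g, where Cdkn1a and Gadd45a are bounds whose place could be higher. Their log2 ratios were at least 4.69 for Cdkn1a, 3.79 for Gadd45b, at least 2.50 for Gadd45a, 1.79 for Mdm2, 1.07 for Cdkn1b, 0.43 for Ccng1 and 0.21 for Gadd45g.

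**Figure D3:**
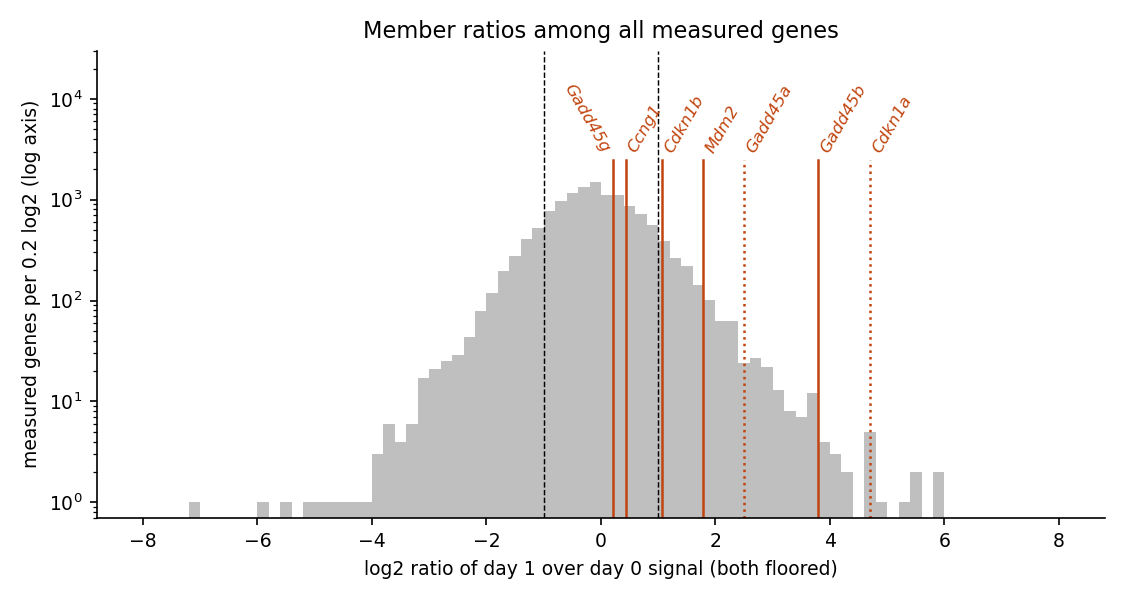
Number of measured genes (log axis) by log2 ratio of day 1 over day 0 signal, with the 7 measured members as vertical lines, dotted for bounds. Dashed lines mark 2-fold; Cdkn1a and Gadd45b lie in the thin upper tail, and Gadd45g and Ccng1 in the bulk of all genes.

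All 7 ratios were above 1 under the deposited scaling and in each alternative that gave a value. Under scaling on the hybridisation controls, which raises all genes (median log2 ratio 0.99), the log2 ratios of the members were from 1.37 for Gadd45g to 5.35 for Cdkn1a and all 7 members were at least 2-fold higher, against 49.4% of all genes. After quantile normalization they were from 0.11 to 4.63. The lowest log2 ratio over the alternatives was 3.01 for Cdkn1a, with the floor at the 75th percentile, and 2.17 for Gadd45b, with the mean of its 3 probe sets.

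**Figure D4:**
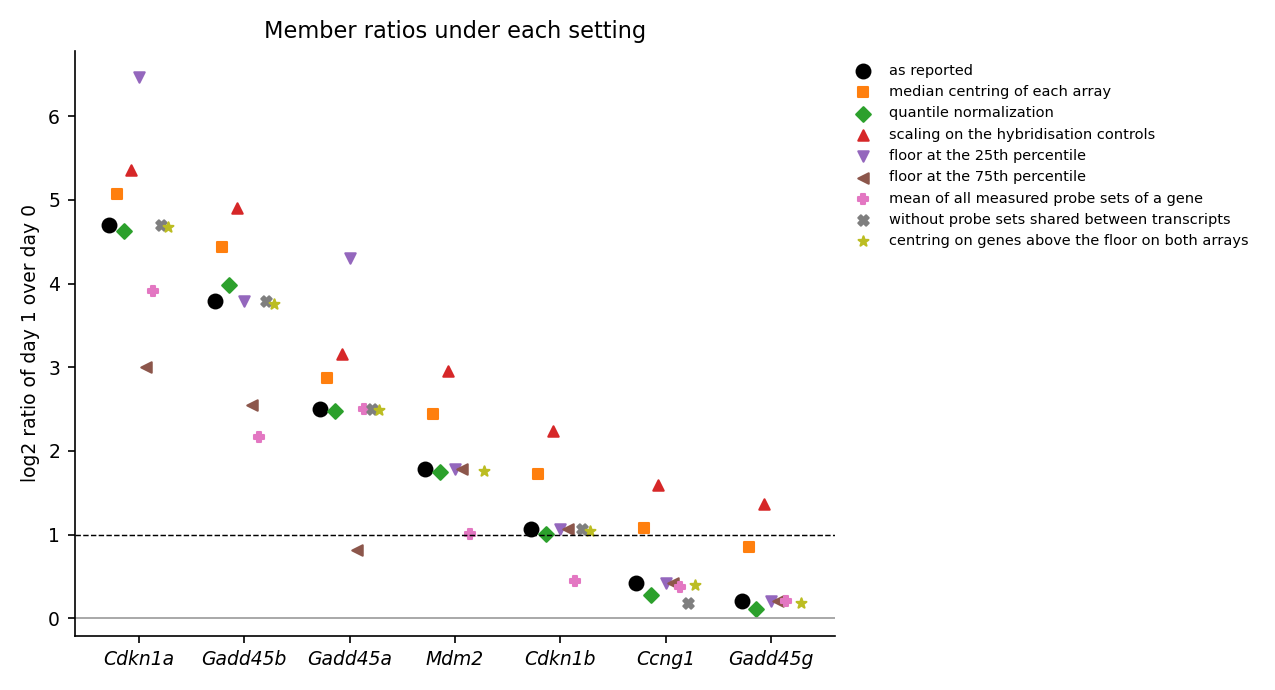
Log2 ratio of day 1 over day 0 (y axis) of the 7 measured members as reported (black) and under 8 other settings (colours and shapes), with 2-fold dashed. Every point lies above 0; Cdkn1a and Gadd45b stay above 2-fold throughout, and Gadd45a drops under it with the highest floor and Cdkn1b with the mean of its probe sets.

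The genes most like Cdkn1a over the floored log2 signals of the 2 arrays were Synpo (distance 0.0028), Osbpl3 (0.033) and Kit (0.41), all at the floor on day 0. Those most like Gadd45b were Hp (0.17), Dmkn (0.23) and Ccn2 (0.25). For Cdkn1a, day 0 was held at the floor for all of these genes, so the likeness rests on the day 1 signal alone. Before the floor, the day 0 signal was 22.8 for Cdkn1a and 73.1 for Synpo. For Gadd45b, with 2 arrays, the likeness rests on 2 points.

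Other p53 targets were mostly brighter on day 1, though less so than Cdkn1a. Of a list of 44 known or reported p53 targets that leaves out the members, 41 had a probe set and 37 were measured. Of these, 30 had a ratio above 1, against 5732 of all 13239 measured genes. At least 2-fold higher were 13 (35.1%), against 10.4% of all genes, and none was at least 2-fold lower (13.3% of all genes). The median log2 ratio was 0.74, against -0.12 over all genes. The list was chosen with earlier results of these data known, so these shares are a description only. The 13 include Sesn1, whose other probe sets ranged from -0.71 to 0.75 log2. Ptp4a3 had -0.38 log2 at its brightest probe set and -1.27 at the other. Ephx1, the microsomal epoxide hydrolase, had a signal of 1968.1 on day 1 and 405.4 on day 0, 4.85-fold higher. Ccng2, a relative of Ccng1 linked to cell cycle arrest, had 2788.0 on day 1 and 592.4 on day 0, 4.71-fold higher. These are the highest ratios of the list with the floor, and the second Ccng2 probe set had 1.86 on the log2 scale. Psrc1, a microtubule gene, was at the floor on day 0, with a signal of 305.8 on day 1 and 28.4 on day 0, so its ratio of at least 3.94-fold could lie above both.

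Trp53inp1, a stress protein that p53 induces, had a signal of 9026.5 on day 1 and 2070.0 on day 0, 4.36-fold higher, with 0.73 log2 at its other probe set. Btg2, an antiproliferative gene, had 1255.4 on day 1 and 289.5 on day 0, 4.34-fold higher, with 1.69 log2 at the other. Pcna, the replication clamp that p21 and Gadd45 proteins bind, had 2862.2 on day 1 and 1327.4 on day 0, 2.16-fold higher.

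Further targets of the list, named after their values were seen, spanned ratios above and below 2-fold. Apaf1, the core of the apoptosome, was 2.39-fold higher with signals of 217.1 on day 1 and 90.8 on day 0. Perp lay just under 2-fold, with 2391.2 on day 1 and 1196.9 on day 0. Bbc3, which encodes Puma, had 241.4 on day 1 and 212.7 on day 0, and Fas had 200.1 and 169.5. Pmaip1, Pidd1 and Tnfrsf10b were not above the floor on either array, and Bax was not analysed here. The log2 ratio was 0.83 for Ercc5, 0.41 for Ddb2 (0.88 at its other probe set) and 0.25 for Rrm2b (0.22 at the other). It was 0.17 for Xpc and -0.17 for Polk (-0.70 at its other probe set). The lowest values were bounds, for Ckap2 (at most -0.94 log2), a mitotic gene, and Tigar (at most -0.87). The other measured probe sets of Tigar had -0.67 and 0.39 log2.

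Regulators of p53 were spread around a ratio of 1. Of 22 genes, 20 were measured, 4 of them at least 2-fold higher (20%, against 10.4% of all genes) and 1 lower (5%, against 13.3%), with a median log2 ratio of 0.16. The 4 include Trp53bp1 (1.23 log2), whose other probe sets ranged from -0.50 to 0.79 log2. They also include Atr (1.00 log2), with 0.08 log2 at its other probe set. Kat5, an acetyltransferase of p53, had a signal of 642.4 on day 1 and 191.9 on day 0, 3.35-fold higher. Sirt1, a deacetylase of p53, had 419.8 on day 1 and 182.8 on day 0, 2.30-fold higher. Chek2, a checkpoint kinase that activates p53, had 170.7 on day 1 and 414.3 on day 0, 2.43-fold lower. An enzyme that adds acetyl groups to p53 and one that removes them were thus both brighter on day 1. Mdm4, the partner of Mdm2, had 338.8 on day 1 and 295.1 on day 0, 1.15-fold higher, while its other measured probe sets had log2 ratios of -0.47 and -1.39.

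Of 23 cyclins, kinases and other cell cycle genes, 20 were measured, with 2 at least 2-fold higher and 2 lower (10% each, against 10.4% and 13.3% of all genes) and a median log2 ratio of -0.11. Cdk4 had a signal of 1648.1 on day 1 and 421.7 on day 0, 3.91-fold higher, and Rb1, the retinoblastoma protein gene, had 2622.1 on day 1 and 934.5 on day 0, 2.81-fold higher. Ccnd1, the cyclin partner of Cdk4, had 424.9 on day 1 and 878.7 on day 0, 2.07-fold lower, and its other probe sets had -0.88 and -1.58 log2. Cdkn2c, an inhibitor of Cdk4 from another family, had 193.5 on day 1 and 495.2 on day 0, 2.56-fold lower. Cdk2, a main target of p21, was nearly level with 282.7 on day 1 and 308.2 on day 0 (-0.12 log2). Ccnd2, another cyclin partner of Cdk4 and named after its values were seen, had 535.8 on day 1 and 383.2 on day 0, 1.40-fold higher.

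None of the 7 measured Gadd45 partner kinases, of 8 listed, was 2-fold different, and their median log2 ratio was 0.14. Map2k7, the partner of Gadd45b named above, was not analysed here. Map3k4, the kinase that Gadd45 proteins bind and activate, had 914.8 on day 1 and 530.4 on day 0, 1.72-fold higher, with other probe sets from -1.10 to 0.66 log2. Together, 6 of 47 measured regulators, cell cycle genes and partner kinases were at least 2-fold higher (12.8%) and 3 lower (6.38%). Over all genes the shares were 10.4% and 13.3%. After median centring or scaling on the hybridisation controls, 0 of these regulators, cell cycle genes and partner kinases were at least 2-fold lower. Of all genes, only 5.17% were lower after median centring and 2.20% after scaling on the hybridisation controls.

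**Figure D5:**
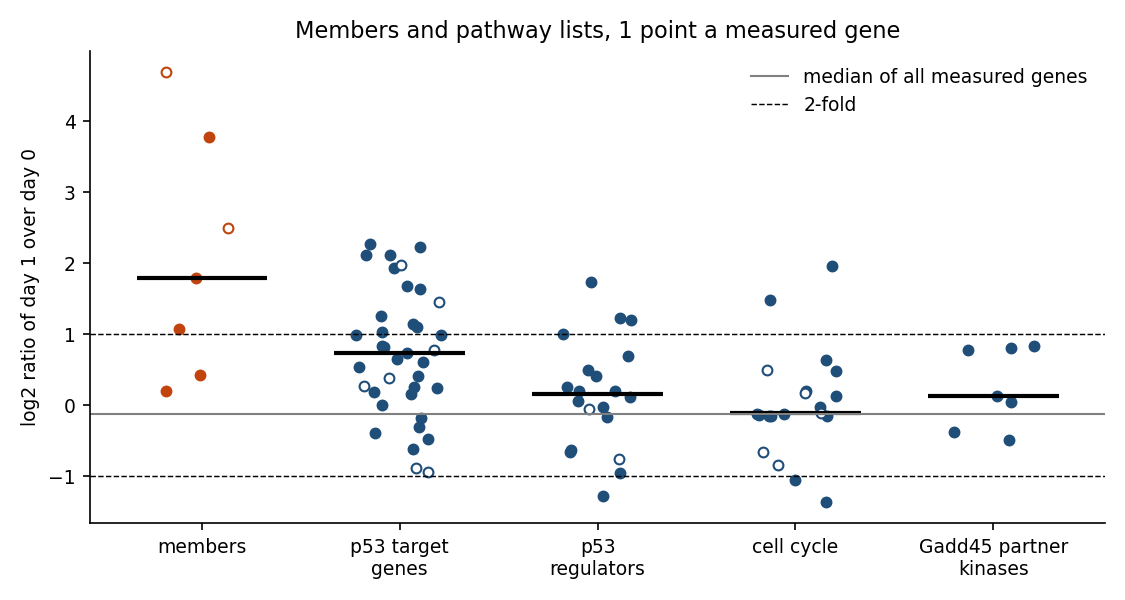
Log2 ratio of day 1 over day 0 (y axis) of each measured gene in the member set, the p53 targets, the p53 regulators, the cell cycle list and the Gadd45 partner kinases, open where 1 array is at the floor. Thick bars are medians, from 1.79 for the members to -0.11 for the cell cycle list, and the grey line is the median of all measured genes (-0.12).

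Markers of some cell types of the gland differed between the same arrays. The tissue is labelled mammary gland, and the milk protein gene Csn2 had a signal of 31909.0 on day 1 and 80907.5 on day 0. Of 8 luminal epithelial markers, 4 were at least 2-fold higher and 3 lower, with a summed signal of 134176.3 on day 1 and 194735.4 on day 0. Most of the day 0 sum came from Csn2 and Wap (32034.9 on day 1 and 76344.1 on day 0), which with Elf5 were the lower ones. The higher ones were the keratins Krt7, Krt8, Krt18 and Krt19, with Krt8 at 23938.2 on day 1 and 3178.5 on day 0. All 5 macrophage markers were measured, 3 at least 2-fold higher, with a summed signal of 35015.2 on day 1 and 7531.6 on day 0, most of it Cd14. Of the others, Csf1r had a log2 ratio of 0.40, and Adgre1 went the other way with -0.83 (375.2 on day 1 and 665.6 on day 0). Lymphocyte markers summed to 733.4 on day 1 and 419.5 on day 0 (3 of 4 higher, 1 lower). The T cell markers went opposite ways, Cd3g with 255.9 on day 1 and 24.9 on day 0, and Cd3e with 116.1 and 273.1. On day 0, Cd3g and Cd79a (38.8) were under the floor, and Ms4a1 (82.7) was just above it. Neutrophil markers summed to 678.1 on day 1 and 297.3 on day 0, sums that include Elane and Mpo, under the floor on both days. Of the 2 measured, S100a8 was higher, with 386.0 on day 1 and a day 0 signal under the floor (73.9). S100a9 was nearly level, with 154.5 on day 1 and 142.7 on day 0. Myoepithelial, adipocyte and fibroblast markers had none 2-fold different, and 1 of 4 endothelial markers was lower. The part of these markers in the member ratios was not tested, and in whole tissue a different share of a cell type and a different amount of RNA per cell cannot be told apart.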

How the data were processed

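Mammary gland RNA of 5 pooled mice per day was measured on 1 array for day 1 and 1 for day 0. The deposited values are probe set intensities, MAS 5 signals on a linear scale, which the authors computed with version 5.0 of the Microarray Suite, per the labels. Both arrays had a trimmed mean of 250.0 (2% left out at each end), so each was scaled as a whole, and a difference in background or total RNA is carried into every ratio. Of the 45101 probe sets, 64 were controls, 34945 had a single gene symbol, 932 had several and were left out, and 9160 had none in the table used. Gene identifiers gave current RefSeq GRCm38.p6 symbols for 34741 of the 34945. A gene with several probe sets is represented by the one brightest on average, and the ratio was log2 of day 1 over day 0 signal after the floor. No test was possible with 1 array per day, and the number of arrays limits the precision. Probe sets disagree where a second one is past 0 in the opposite direction by 0.5 log2 or more.

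The members, lists and motifs were chosen with earlier results of these data known. The rule for named genes took all members, up to 4 genes per direction and list with the largest ratio of 2-fold or more and no disagreeing probe set, and Bax, Mdm4, Pcna, Ccnd1, Cdk2, Cdk4 and Map3k4 whatever their values, and the 3 genes nearest to Cdkn1a and to Gadd45b. Promoters of 7 members were matched by symbol in RefSeq. Alternatives were 3 other scalings, floors at the 25th and 75th percentile, the mean of all probe sets, leaving out shared probe sets, a 1.5-fold threshold and 1 centring added after the data were examined. Python 3.11.15, numpy 2.4.6 and pandas 2.3.3 were used, and the counting was tested on simulated data.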

Additional observations from a re-analysis of the deposited data

How the results depend on the processing

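The count of members at least 2-fold higher was 5 as reported and from 4 to 7 over 9 alternatives, and none was at least 2-fold lower in any of them. No member ratio changed sign, and without shared probe sets Gadd45g and Mdm2 gave no value, having no other measured probe set. The other counts depended on scaling, floor and threshold. Of the p53 targets, 13 were higher as reported, 23 after median centring, 30 after hybridisation control scaling, 7 with a floor at the 75th percentile and 21 at 1.5-fold, and 0 were lower as reported, 2 with a floor at the 25th percentile and 3 at 1.5-fold. Of the regulators, cell cycle and partner genes, 6 were higher as reported, 15 after median centring, 34 after hybridisation control scaling and 11 at 1.5-fold. Lower were 3 as reported, 0 after median centring, 0 after hybridisation control scaling, 8 and 1 with floors at the 25th and 75th percentile, 5 without shared probe sets and 9 at 1.5-fold. Scaling, floor and threshold moved the background too. Of all genes, 28.5% were higher after median centring, 49.4% after hybridisation control scaling and 20.4% at 1.5-fold. With a floor at the 75th percentile 10.9% were higher, of only 7850 measured genes against 13239 as reported. Counts at that floor thus come from fewer measured genes. Lower over all genes were 13.3% as reported, 5.17% after median centring and 2.20% after hybridisation control scaling. With floors at the 25th and 75th percentile 26.0% and 7.72% were lower, without shared probe sets 13.6% and at 1.5-fold 27.2%. Genes counted as higher were 43.8% of those counted as deposited, 84.6% after median centring, 50.2% after quantile normalization, 95.7% after hybridisation control scaling, and 31.6% and 58.4% with floors at the 25th and 75th percentile. The causes were not tested. Signals under the floor of 77.7 limit Cdkn1a, Gadd45a and Cdkn1c. No paired analysis was possible because each day has 1 array.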

Other observations

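Genes related to the members by symbol but on none of the lists (other Trp53-, Gadd45-, Mdm-, cyclin- and Cdk-named genes, picked after the data were examined) were also measured. Of 43 measured, 3 reached 2-fold on the higher side on day 1 and 1 on the lower side (against 10.4% and 13.3% of all genes), with a median log2 ratio of -0.01. Trp53i11 was 2.33-fold higher, with a signal of 737.5 on day 1 and 317.2 on day 0, and Trp53inp2, a relative of Trp53inp1 that takes part in autophagy, was 2.24-fold higher with 2068.6 on day 1 and 924.6 on day 0. Cdk5rap1 was at least 2.12-fold higher, and Cdk5rap2, a centrosome gene, at least 2.40-fold lower. Cdk9, the kinase of transcription elongation, was 1.77-fold higher.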
